A study of Mus musculus with 12 samples.

Results

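The collagen gene family was described as the transcripts counted in CD8+ T cells that had been sorted from mouse tumours. Members were all rows of the gene table whose symbol has the form Col, a number, a and a number, and 44 of the 56980 rows met this rule. Wild-type C57BL/6J mice carried tumours of Panc02, a pancreatic carcinoma line from the mouse, or of a Panc02 line that expresses Flt3L, a growth factor of dendritic cells. Live (DAPI-negative), CD45.2+ and CD8+ cells were divided by asialo-GM1 (asGM1), a glycolipid of the cell surface, and no T cell receptor marker is named for the sort. The 4 groups of 3 libraries were asGM1-positive cells from Flt3L Panc02 tumours, asGM1-negative cells from Flt3L Panc02 tumours, asGM1-positive cells from Panc02 tumours and asGM1-negative cells from Panc02 tumours. Messenger RNA was measured by bulk sequencing. The labels do not say whether replicates came from separate mice or whether the Flt3L line was 1 clone, and p-values therefore measure only the spread between these samples.

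Collagens are secreted or membrane-bound proteins whose chains wind into triple helices and assemble into fibrils, networks or beaded filaments outside the cell. In solid tumours they are made mainly by fibroblasts, pericytes, endothelial cells and some carcinoma cells, while T cells are not known as makers of fibrillar collagen and meet collagen through receptors such as the integrin chain CD49a. In RNA from a sorted T cell population, collagen transcripts can therefore come from other cells or free RNA as well as from the sorted cells. Because the samples are bulk RNA, fewer cells of a type and less RNA per cell cannot be told apart.

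Library totals lay between 98663008 and 102896605 counts. The T cell genes Cd3e, Cd3d, Cd3g, Cd8a, Cd8b1, Trac, Cd2 and Cd5 were abundant in every library, with a summed level of 7596 to 12987 CPM (counts scaled to a common library total with TMM factors). Transcripts of other cells were also present. A list of 12 macrophage and monocyte genes summed to 1619 to 3907 CPM, highest in Panc02 asGM1-positive replicate 1. The 10 endothelial genes summed to 18.4 to 67.6 CPM. A list of 7 plasmacytoid dendritic cell genes summed to 99.5 to 143 CPM in Flt3L Panc02 asGM1-positive libraries, 800.3 to 947 CPM in Flt3L Panc02 asGM1-negative ones, 113 to 142 CPM in Panc02 asGM1-positive ones and 267 to 315 CPM in Panc02 asGM1-negative ones.

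Of the 44 collagen genes, 7 had no count in any of the 12 libraries (Col25a1, Col6a5, Col22a1, Col26a1, Col9a1, Col19a1 and Col6a4). A further 4 (Col2a1, Col9a2, Col4a6 and Col11a1) were above 0 in 1 library only. Transcripts of 20 genes were found in all 12 libraries, and 17 genes reached the floor of 3 sequenced fragments, about 0.08 CPM, in all 12. A count of 0 limits the level only to that floor, and the floor covers counting error only. The mean level over the 12 libraries was at least 1 CPM for 15 genes and at least 5 CPM for 10. The filter on low counts kept 29 members for testing. Of the 15 members not tested, 4 reached the floor in at least 1 library, and the most abundant of them, the transmembrane collagen Col13a1, had 80 counts (0.758 CPM) in Panc02 asGM1-positive replicate 1, 11 counts in Flt3L Panc02 asGM1-positive replicate 1 and none in the other libraries.

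Over the 12 libraries together, the most abundant members were not the fibrillar chains. Per kilobase of exon, which allows levels of different genes to be compared, Col6a1 led with a mean of 10.2 CPM per kb. Col6a2 followed with 4.71, Col18a1 with 4.03 and Col3a1 with 3.25 CPM per kb, against 1.05 CPM per kb for Col1a1 and 1.66 CPM per kb for Col1a2. As a share of the summed collagen CPM, which is not corrected for length, Col6a1 made up 23.1%, Col6a2 15.7% and Col18a1 15.2%, and the 10 most abundant genes together made up 91.4%.

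Summed over all 44 genes, collagen transcripts came to 102, 96.5 and 68.8 CPM in replicates 1, 2 and 3 of Flt3L Panc02 asGM1-positive cells. In Flt3L Panc02 asGM1-negative cells the sums were 37.3, 106 and 115 CPM. They were 528, 417 and 139.9 CPM in Panc02 asGM1-positive cells and 289, 139 and 126 CPM in Panc02 asGM1-negative cells. All 6 Panc02 libraries thus lay above all 6 Flt3L Panc02 libraries, and Panc02 asGM1-positive cells spread most among their replicates. Collagens were a small share of all counts everywhere, with at most 0.0528% of the library.

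**Figure D1:**
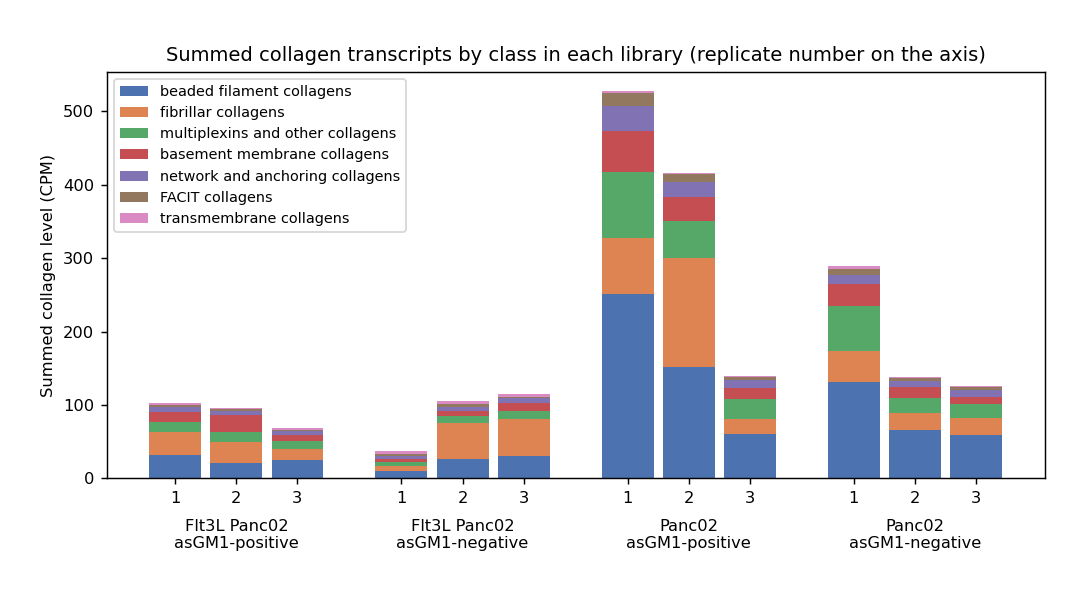
Stacked bars give the summed collagen level (CPM) of each library, divided by structural class, with the 3 replicates of each group side by side. The 6 Panc02 libraries stand between 126 and 528 CPM and the 6 Flt3L Panc02 libraries between 37.3 and 115 CPM.

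The makeup of the sum differed between libraries as well as its size. The type VI chains (Col6a1, Col6a2 and Col6a3) made up 30.7%, 22.2% and 37.2% of the collagen sum in Flt3L Panc02 asGM1-positive cells and 28.1%, 25.3% and 26.2% in Flt3L Panc02 asGM1-negative cells. They made up 47.6%, 36.5% and 42.8% in Panc02 asGM1-positive cells and 45.4%, 47.6% and 47.1% in Panc02 asGM1-negative cells, so that the tumour types separated by this share except for the 37.2% and 36.5% of 1 library each. The chains of types I and III (Col1a1, Col1a2 and Col3a1) took 23.4%, 22.9% and 16.4% in Flt3L Panc02 asGM1-positive cells and 9.08%, 39.9% and 38.8% in Flt3L Panc02 asGM1-negative cells. Their shares were 9.76%, 30.1% and 9.15% in Panc02 asGM1-positive cells and 10.3%, 11.3% and 12.7% in Panc02 asGM1-negative cells. The highest shares were in replicates 2 and 3 of Flt3L Panc02 asGM1-negative cells and replicate 2 of Panc02 asGM1-positive cells. The other Panc02 libraries had 9.15% to 12.7%. The other Flt3L Panc02 libraries had 16.4% to 23.4%, except for the 9.08% of asGM1-negative replicate 1.

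Type VI collagen forms beaded microfilaments around cells, and Col6a1, Col6a2 and Col6a3 encode the chains of its common form. Col6a1 had 18.4, 11.3 and 14.8 CPM in Flt3L Panc02 asGM1-positive cells, 6.24, 13.3 and 16.6 CPM in Flt3L Panc02 asGM1-negative cells, 146, 92.5 and 34.6 CPM in Panc02 asGM1-positive cells and 73.7, 39.5 and 33.1 CPM in Panc02 asGM1-negative cells. Every Panc02 library was above every Flt3L Panc02 library, and replicate 1 was the highest of each Panc02 gate. Col6a2 had 12.6, 9.74 and 10.4 CPM in Flt3L Panc02 asGM1-positive cells, 4.04, 11.3 and 12.3 CPM in Flt3L Panc02 asGM1-negative cells, 100.3, 52.0 and 23.7 CPM in Panc02 asGM1-positive cells and 54.1, 25.2 and 24.1 CPM in Panc02 asGM1-negative cells, with the same separation of tumour types. Col6a3 was far lower, at 0.425, 0.345 and 0.388 CPM in Flt3L Panc02 asGM1-positive cells, 0.192, 2.29 and 1.26 CPM in Flt3L Panc02 asGM1-negative cells, 5.07, 7.81 and 1.49 CPM in Panc02 asGM1-positive cells and 3.36, 1.26 and 1.99 CPM in Panc02 asGM1-negative cells. Its levels overlapped between tumour types in asGM1-negative cells and were apart in asGM1-positive cells. The other type VI chains, Col6a4, Col6a5 and Col6a6, were at or under the floor in every group mean.

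Collagens of basement membranes came next. Col18a1, a proteoglycan collagen of basement membranes whose end fragment is endostatin, had 13.5, 13.8 and 10.3 CPM in Flt3L Panc02 asGM1-positive cells, 4.29, 9.06 and 10.8 CPM in Flt3L Panc02 asGM1-negative cells, 89.3, 50.2 and 26.7 CPM in Panc02 asGM1-positive cells and 61.1, 20.6 and 18.8 CPM in Panc02 asGM1-negative cells. Here too all Panc02 libraries stood above all Flt3L Panc02 libraries. Col4a1, a network-forming chain of every basement membrane, had 8.47, 13.9 and 4.56 CPM in Flt3L Panc02 asGM1-positive cells, 3.16, 4.30 and 6.40 CPM in Flt3L Panc02 asGM1-negative cells, 34.5, 20.6 and 10.2 CPM in Panc02 asGM1-positive cells and 18.7, 9.21 and 5.86 CPM in Panc02 asGM1-negative cells. Its partner chain Col4a2 had 3.60, 8.31 and 3.202 CPM in Flt3L Panc02 asGM1-positive cells, 1.45, 2.17 and 3.64 CPM in Flt3L Panc02 asGM1-negative cells, 16.2, 9.19 and 3.70 CPM in Panc02 asGM1-positive cells and 8.65, 3.62 and 2.66 CPM in Panc02 asGM1-negative cells. Both chains overlapped between the tumour types in each gate. The Col4a1 and Col4a2 exons overlap by 22 bases on opposite strands, and whether the counting used strand is not given in the sources used here.

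Col8a1 encodes a chain of type VIII, a short-chain network collagen known from vessel walls and from the membrane under the corneal endothelium. It had 5.25, 3.73 and 3.25 CPM in Flt3L Panc02 asGM1-positive cells, 2.78, 3.25 and 3.73 CPM in Flt3L Panc02 asGM1-negative cells, 33.0, 18.7 and 9.97 CPM in Panc02 asGM1-positive cells and 12.1, 7.82 and 9.14 CPM in Panc02 asGM1-negative cells. The 6 Flt3L Panc02 libraries lay close together and below every Panc02 library. Col16a1, a collagen that associates with fibrils, had 1.49, 2.30 and 0.820 CPM in Flt3L Panc02 asGM1-positive cells, 0.933, 1.92 and 0.538 CPM in Flt3L Panc02 asGM1-negative cells, 7.62, 3.85 and 1.60 CPM in Panc02 asGM1-positive cells and 3.78, 1.55 and 1.42 CPM in Panc02 asGM1-negative cells, and overlapped between the tumour types.

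The fibrillar chains behaved less evenly. Col3a1, the chain of type III fibrils, had 8.42, 8.83 and 4.07 CPM in Flt3L Panc02 asGM1-positive cells, 1.60, 19.4 and 21.6 CPM in Flt3L Panc02 asGM1-negative cells, 38.6, 64.3 and 10.97 CPM in Panc02 asGM1-positive cells and 18.9, 10.4 and 9.77 CPM in Panc02 asGM1-negative cells. Col1a1, which encodes the alpha 1 chain of type I fibrils, had 6.85, 4.90 and 2.69 CPM in Flt3L Panc02 asGM1-positive cells, 0.548, 10.2 and 10.03 CPM in Flt3L Panc02 asGM1-negative cells, 6.13, 21.5 and 1.44 CPM in Panc02 asGM1-positive cells and 5.31, 2.77 and 2.38 CPM in Panc02 asGM1-negative cells. Col1a2, its alpha 2 partner, had 8.64, 8.34 and 4.50 CPM in Flt3L Panc02 asGM1-positive cells, 1.24, 12.7 and 13.1 CPM in Flt3L Panc02 asGM1-negative cells, 6.78, 39.5 and 0.400 CPM in Panc02 asGM1-positive cells and 5.49, 2.44 and 3.78 CPM in Panc02 asGM1-negative cells. For the type I chains, Panc02 asGM1-positive replicate 2 was the highest of all libraries, replicate 3 of the same group was among the lowest, and the groups overlapped in all 4 comparisons.

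Col5a1, a chain of the minor fibrillar type V that helps to start type I fibrils, had 6.60, 4.88 and 2.66 CPM in Flt3L Panc02 asGM1-positive cells, 2.47, 4.01 and 4.39 CPM in Flt3L Panc02 asGM1-negative cells, 22.3, 18.5 and 6.11 CPM in Panc02 asGM1-positive cells and 9.67, 6.10 and 5.46 CPM in Panc02 asGM1-negative cells. Only the highest Flt3L Panc02 asGM1-positive library reached above the lowest library of Panc02 asGM1-positive cells. Col23a1, a transmembrane collagen, had 2.41, 2.02 and 2.54 CPM in Flt3L Panc02 asGM1-positive cells, 3.31, 3.01 and 2.92 CPM in Flt3L Panc02 asGM1-negative cells, 2.06, 1.39 and 1.86 CPM in Panc02 asGM1-positive cells and 2.35, 2.11 and 1.32 CPM in Panc02 asGM1-negative cells. All 3 Flt3L Panc02 asGM1-negative libraries were above the other 9.

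**Figure D2:**
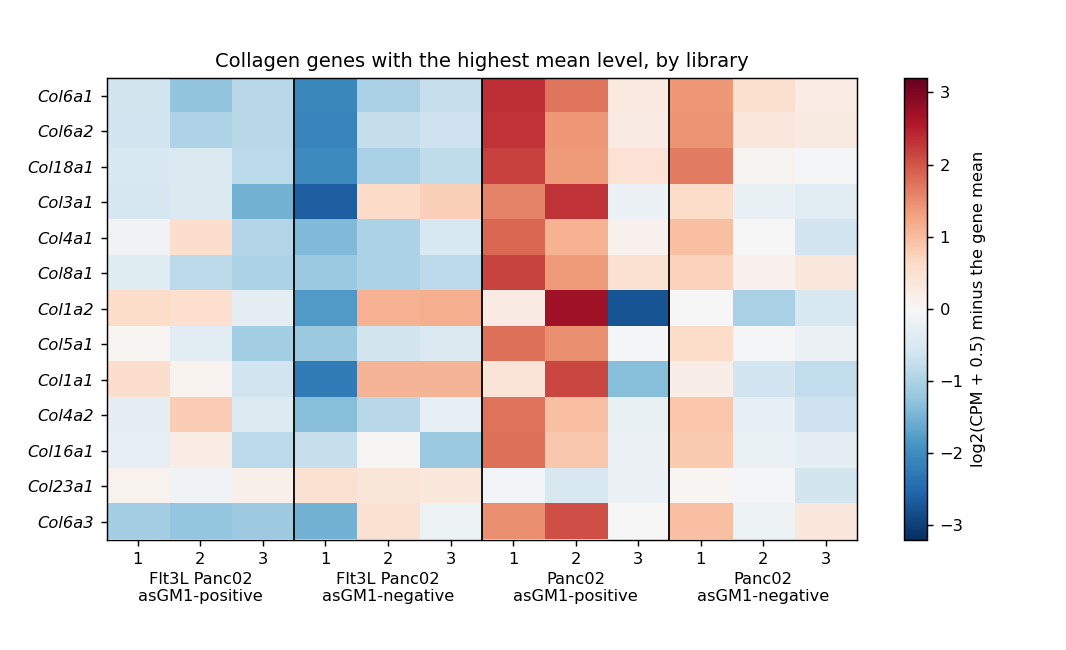
Colours give log2(CPM + 0.5) minus the gene mean over 12 libraries (red above, blue below) for the 13 most abundant collagen genes in each library. Panc02 asGM1-positive replicates 1 and 2 are red for most genes, Flt3L Panc02 asGM1-negative replicate 1 is blue for most, and the rows of Col1a1 and Col1a2 follow another order of libraries than the rows of Col6a1 and Col6a2.

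Whether collagen transcripts differed between tumour types was tested in each gate by the quasi-likelihood method of edgeR, p-values being adjusted by Benjamini-Hochberg over the 20411 genes tested and called under 0.05. In asGM1-positive cells 6 collagens fell in Flt3L Panc02 relative to Panc02 tumours and none rose. They were the 3 type VI chains, the network chain Col8a1, the basement membrane collagen Col18a1 and the fibrillar chain Col5a1. These were 20.7% of the 29 collagens tested, beside 6.25% of all genes called in that comparison (4.2% lower and 2.05% higher). The median log2 fold change was -1.50 over the 29 tested collagens and -0.03 over all genes tested, and 25 of the 29 were negative. An unadjusted p under 0.05 was reached by 12, beside 24.4% of all genes. The 29 include members that passed the filter only through their higher group. Levels of 10 tested members did not overlap between the groups and were lower in Flt3L Panc02 (Col8a1, Col6a1, Col6a2, Col6a3, Col18a1, Col4a5, Col12a1, Col3a1, Col27a1 and Col14a1), beside 16.5% of all genes, and none was higher without overlap, beside 14.2% of all genes.

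Col6a1 averaged 14.8 ± 3.55 CPM in Flt3L Panc02 asGM1-positive cells and 90.9 ± 55.5 CPM in Panc02 asGM1-positive cells (SD, n = 3 each). The log2 fold change was -2.62 ± 0.51 (SE, edgeR adjusted p = 0.0173). Col8a1 averaged 4.08 ± 1.05 CPM in Flt3L Panc02 asGM1-positive cells and 20.5 ± 11.6 CPM in Panc02 asGM1-positive cells, with -2.33 ± 0.37 (edgeR adjusted p = 0.00801). The log2 fold change was -2.43 ± 0.54 for Col6a2 (edgeR adjusted p = 0.0254) and -3.63 ± 0.81 for Col6a3 (edgeR adjusted p = 0.0259). It was -2.14 ± 0.53 for Col18a1 (edgeR adjusted p = 0.0382) and -1.73 ± 0.46 for Col5a1 (edgeR adjusted p = 0.0495). Type I chains did not pass the test: Col1a1 had a log2 fold change of -1.01 ± 0.95 (edgeR adjusted p = 0.56), which was 0.35 without Panc02 asGM1-positive replicate 2. Col3a1 had -2.42 ± 0.81 (edgeR adjusted p = 0.0945), Col4a1 had -1.28 ± 0.53 (edgeR adjusted p = 0.167) and Col23a1 had 0.39 ± 0.25 (edgeR adjusted p = 0.369).

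All 6 calls ended when the 6 asGM1-positive libraries were fitted alone, with adjusted p-values of 0.0507 to 0.107, and 1 gene of the whole table was then called. Leaving out 1 library at a time, Col8a1 alone remained called without Panc02 asGM1-positive replicate 1 or 2 and without Flt3L Panc02 asGM1-positive replicate 2 or 3, and 3 members were called without Flt3L Panc02 asGM1-positive replicate 1. Without Panc02 asGM1-positive replicate 3, the lowest library of its group, 9 members were called. The log2 fold change of Col6a2 was -1.80 without Panc02 asGM1-positive replicate 1. With no filter on low counts the calls of Col18a1 and Col5a1 ended, and Col6a3 did not pass the filter of 5 CPM in 3 libraries.

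In asGM1-negative cells 2 collagens fell in Flt3L Panc02 relative to Panc02 tumours, Col6a1 and Col8a1, and none rose by edgeR. The limma-voom test called Col14a1 and Col17a1 as higher beside these 2, and without Panc02 asGM1-negative replicate 1 Col14a1 was the 1 member called, as higher. The 2 edgeR calls over all libraries were 6.9% of the 29 collagens tested, beside 3.7% of all genes called in that comparison (1.84% lower and 1.86% higher). Col6a1 averaged 12.04 ± 5.28 CPM in Flt3L Panc02 asGM1-negative cells and 48.8 ± 21.9 CPM in Panc02 asGM1-negative cells (SD, n = 3 each), and the log2 fold change was -2.02 ± 0.50 (SE, edgeR adjusted p = 0.0491). Col8a1 averaged 3.25 ± 0.476 CPM in Flt3L Panc02 asGM1-negative cells and 9.67 ± 2.17 CPM in Panc02 asGM1-negative cells, with -1.57 ± 0.37 (edgeR adjusted p = 0.0404). Col18a1 had a log2 fold change of -2.06 ± 0.53 (edgeR adjusted p = 0.0542) and Col6a2 had -1.90 ± 0.53 (edgeR adjusted p = 0.0685), neither past the threshold, and 8 members had an unadjusted p under 0.05, beside 20.3% of all genes. Col1a1 had 0.99 ± 0.96 (edgeR adjusted p = 0.632) and Col6a3 had -0.82 ± 0.73 (edgeR adjusted p = 0.591).

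The median log2 fold change in asGM1-negative cells was -0.39 over the 29 tested collagens and 0.00 over all genes, with 12 members positive and 17 negative. Levels of 8 members were lower in Flt3L Panc02 with no overlap, beside 12.9% of all genes, and 5 low members (Col23a1, Col20a1, Col9a3, Col17a1 and Col11a2) were higher with no overlap, beside 13.8% of all genes. Both calls ended in each of the 6 runs that left out 1 asGM1-negative library and with no filter on low counts. The log2 fold change of Col18a1 was -1.29 without Panc02 asGM1-negative replicate 1, and that of Col6a3 was -1.60 without Flt3L Panc02 asGM1-negative replicate 2.

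**Figure D3:**
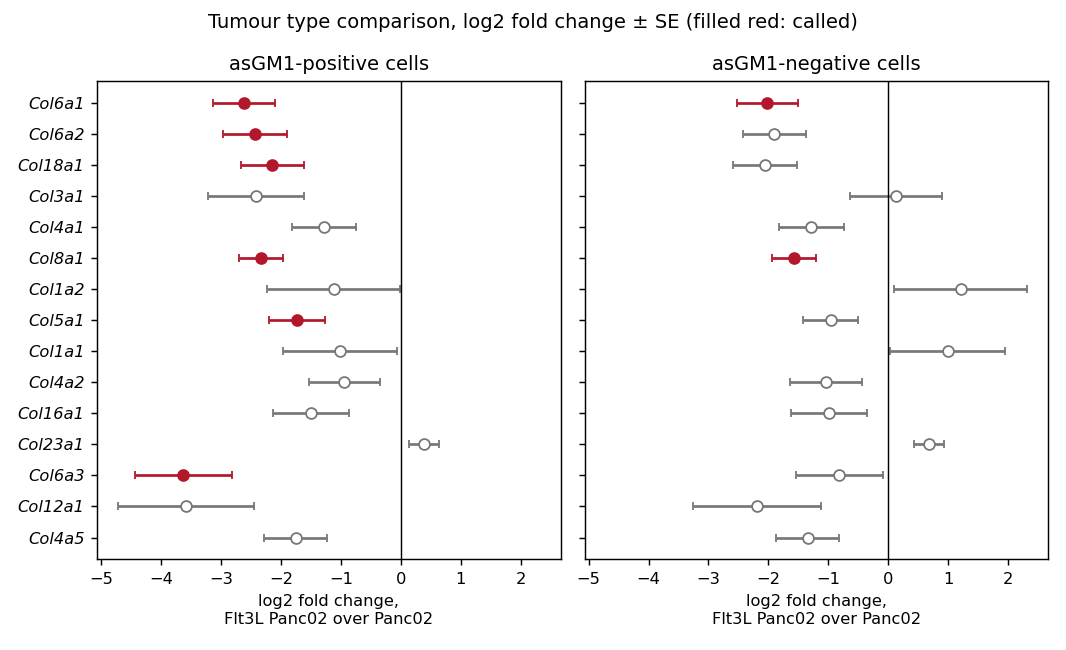
Points give the edgeR log2 fold change, Flt3L Panc02 over Panc02, for 15 collagen genes in each gate, and bars give ± 1 SE. Filled red points passed the adjusted threshold (6 in asGM1-positive cells and 2 in asGM1-negative cells), and the type I chains Col1a1 and Col1a2 lie on opposite sides of 0 in the 2 gates.

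Some markers of cells other than T cells moved with these collagens, and others did not. Acta2, the smooth muscle actin also found in activated fibroblasts, had 2.48, 2.12 and 2.58 CPM in Flt3L Panc02 asGM1-positive cells, 2.39, 2.21 and 3.35 CPM in Flt3L Panc02 asGM1-negative cells, 101, 46.1 and 19.5 CPM in Panc02 asGM1-positive cells and 36.2, 22.8 and 22.7 CPM in Panc02 asGM1-negative cells. On the log2 scale it fell by 4.54 ± 0.51 among asGM1-positive cells (edgeR adjusted p = 0.00347) and by 3.36 ± 0.48 among asGM1-negative cells (edgeR adjusted p = 0.00676). Acta2 carried most of the pericyte and smooth muscle list in Panc02 libraries (101 of 108 CPM in asGM1-positive replicate 1) but 2.12 of 5.73 CPM in Flt3L Panc02 asGM1-positive replicate 2, where Mcam had 2.97 CPM. In this list 2 of 7 tested genes fell in asGM1-positive cells and 1 in asGM1-negative cells. It summed to 4.44 to 5.73 CPM in Flt3L Panc02 asGM1-positive cells, 5.13 to 5.99 CPM in Flt3L Panc02 asGM1-negative cells, 22.5 to 108 CPM in Panc02 asGM1-positive cells and 25.0 to 42.9 CPM in Panc02 asGM1-negative cells.

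Of 13 fibroblast genes tested, 5 fell in each gate and none rose, beside 4.2% of all genes lower in asGM1-positive and 1.84% in asGM1-negative cells, shares that also stand beside the counts of the other marker lists. Leaving out 1 library at a time ended the asGM1-negative calls of Dcn and Lum in 6 of 6 runs and of Fbln1 in 5, and the asGM1-positive call of Dcn in 4. They include Dcn, the small proteoglycan decorin that binds collagen fibrils, with -3.17 ± 0.65 among asGM1-positive cells (edgeR adjusted p = 0.02) and -2.78 ± 0.65 in asGM1-negative cells (edgeR adjusted p = 0.0404). Without Thy1, which T cells also express and which was taken out after its values were seen, the list summed to 27.2 to 37.1 CPM in Flt3L Panc02 asGM1-positive cells, 27.0 to 34.8 CPM in Flt3L Panc02 asGM1-negative cells, 64.3 to 294 CPM in Panc02 asGM1-positive cells and 61.2 to 121 CPM in Panc02 asGM1-negative cells. Those 5 are Fbln1, C1s1, Dcn, Mgp and Lum. Fap, a protease used as a marker of tumour fibroblasts, had no count in any library. In the tumour epithelial list, in which Spint2 and Cdh1 are the most abundant, 2 of 10 tested genes fell and 1 rose in each gate. In asGM1-positive cells 3 of the 10 were positive and 7 negative (median log2 fold change -0.32). In asGM1-negative cells 6 were positive and 4 negative (median 0.11). The keratin gene Krt18 fell by 3.003 ± 0.38 among asGM1-positive cells (edgeR adjusted p = 0.00497) and by 2.43 ± 0.37 on the log2 scale in asGM1-negative cells (edgeR adjusted p = 0.00844). Krt7 was at or under the floor in every group, and the list summed to 203 to 211 CPM in Flt3L Panc02 asGM1-positive cells, 226 to 237 CPM in Flt3L Panc02 asGM1-negative cells, 213 to 269.7 CPM in Panc02 asGM1-positive cells and 226 to 246 CPM in Panc02 asGM1-negative cells. Of 12 macrophage and monocyte genes 10 were negative in each gate (median log2 fold change -1.24 in asGM1-positive and -1.14 in asGM1-negative cells). In asGM1-positive cells 3 fell (Apoe, Csf1r and Itgam), and edgeR called 0 in asGM1-negative cells. Of 10 endothelial genes it called 0 in both gates, and most had the opposite direction. In asGM1-positive cells 9 were positive (median log2 fold change 0.77), and in asGM1-negative cells 8 (median 0.79). Of 7 plasmacytoid dendritic cell genes 4 rose in asGM1-negative cells, beside 1.86% of all genes, and 0 were called in asGM1-positive cells. The T cell genes were not level either. Of 8 tested, 3 rose in asGM1-positive cells, beside 2.05% of all genes, with all 8 positive and a median log2 fold change of 0.56. In asGM1-negative cells edgeR called 0 of the 8. Between the gates of Flt3L Panc02 2 were higher in asGM1-positive cells, beside 2.77% of all genes. The part of any of these cell types in the collagen differences was not tested.

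Col6a1 and Col8a1 were the members called in both tumour comparisons, and the 250 bases upstream of their start sites are given from RefSeq on GRCm38.p6, a build other than the mm39 of the counts. The Col6a1 window lies at chr10:76726045-76726294 and the Col8a1 window at chr16:57754738-57754987, both on the minus strand and printed 5′ to 3′ in the direction of the gene. Capitals mark TGANTCA, the site letters of AP-1, in Col6a1, and CCGCCC, which is GGGCGG on the other strand and forms the core of a GC box, in Col8a1.
Col6a1: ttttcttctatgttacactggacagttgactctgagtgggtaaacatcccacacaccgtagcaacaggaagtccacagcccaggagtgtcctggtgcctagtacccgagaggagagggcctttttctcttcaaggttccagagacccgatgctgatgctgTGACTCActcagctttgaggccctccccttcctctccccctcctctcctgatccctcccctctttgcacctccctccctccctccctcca
Col8a1: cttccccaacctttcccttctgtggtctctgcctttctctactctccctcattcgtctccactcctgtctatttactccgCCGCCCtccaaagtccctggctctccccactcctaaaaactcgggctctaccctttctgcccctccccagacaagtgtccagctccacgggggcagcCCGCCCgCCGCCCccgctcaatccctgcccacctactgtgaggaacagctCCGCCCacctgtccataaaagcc

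The motif TGANTCA, the motif GGGCGG, the letters CCAAT, the letters TATAAA and the CArG box were searched on both strands in all windows of 250 bases. The Col6a1 window held 1 TGANTCA match and none of the others, and the Col8a1 window held 4 GGGCGG matches and none of the others. TGANTCA occurred in 1 of the 38 windows of 35 matched collagen genes and in 6.75% of 32851 windows. GGGCGG occurred in 22 of the 38 and in 32.7% of all windows. CCAAT was in 13 of the 38 and 33.8% of all windows, TATAAA in 5 and 12.4%, and the CArG box in 1 and 1.47%. These matches are letters in a window and were not tied to binding in these samples.

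No collagen gene was called between the gates in either tumour type. In Panc02 tumours edgeR called 0 of 29 tested collagens, beside 0.892% of all genes (0.049% higher and 0.843% lower), and 3 had an unadjusted p under 0.05, beside 9.99% of all genes. The DESeq2 test also called 0, and limma-voom with quality weights called 2 (Col14a1 and Col8a1). The log2 fold change, asGM1-positive over asGM1-negative, was 1.09 ± 0.36 for Col8a1 (edgeR adjusted p = 0.281), 1.14 ± 0.46 for Col5a1 (edgeR adjusted p = 0.413) and 0.90 ± 0.49 for Col6a1 (edgeR adjusted p = 0.587). Of the 29 tested members 23 were positive and 6 negative, with a median of 0.90, against 0.02 over all genes. Only Col14a1 and Col27a1 were higher in asGM1-positive cells with no overlap, beside 8.67% of all genes, and none was lower without overlap, beside 8.92%. Compared within same-numbered pairs, 11 of the 29 were higher in asGM1-positive cells in all 3 pairs, beside 19.8% of all genes (Col6a1, Col18a1, Col3a1, Col4a1, Col4a2, Col8a1, Col5a1, Col16a1, Col4a5, Col27a1 and Col14a1). The collagen sum was higher in all 3 pairs too. Col17a1 was lower in all 3, beside 17.5% of all genes. With the numbers as a block edgeR called 0 of the 29.

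In Flt3L Panc02 tumours edgeR again called 0 of 29, beside 8.59% of all genes (2.77% higher and 5.83% lower), and 5 had an unadjusted p under 0.05, beside 25.4% of all genes. DESeq2 and limma-voom each called 1, Col17a1. The 29 tested members were 14 positive and 15 negative, with a median of -0.01, the same as over all genes. Levels of 6 members (Col17a1, Col11a2, Col9a3, Col20a1, Col23a1 and Col15a1) were lower in asGM1-positive cells with no overlap, beside 17.3% of all genes, and none was higher without overlap, beside 11.4%. The log2 fold change was 0.96 ± 0.53 for Col4a1 (edgeR adjusted p = 0.288), -0.41 ± 0.25 for Col23a1 (edgeR adjusted p = 0.335), -0.998 ± 0.78 for Col3a1 (edgeR adjusted p = 0.459) and -0.52 ± 0.95 for Col1a1 (edgeR adjusted p = 0.781).

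Col17a1 and Col8a2 were singled out after their values were seen. Col17a1, the transmembrane collagen of hemidesmosomes, had 1.39, 1.45 and 1.10 CPM in Flt3L Panc02 asGM1-negative cells, from 144, 157 and 116 counts, against 16, 0 and 0 counts in Flt3L Panc02 asGM1-positive cells. In Panc02 tumours it had 0, 0 and 9 counts in asGM1-positive cells and 90, 8 and 11 counts in asGM1-negative cells. The Flt3L Panc02 asGM1-negative libraries were thus above all others, and the edgeR adjusted p between the gates in Flt3L Panc02 was 0.0877, with no fold given because the mean of asGM1-positive cells lay under the floor. The plasmacytoid dendritic cell gene Siglech had 4.55, 2.33 and 1.60 CPM in Flt3L Panc02 asGM1-positive cells, 289.8, 262 and 253 CPM in Flt3L Panc02 asGM1-negative cells, 1.75, 3.10 and 0.0901 CPM in Panc02 asGM1-positive cells and 70.1, 40.4 and 43.0 CPM in Panc02 asGM1-negative cells, and its part in the Col17a1 levels was not tested. Of the 7 plasmacytoid dendritic cell genes 6 fell in asGM1-positive cells of Flt3L Panc02, beside 5.83% of all genes. In those of Panc02 tumours 5 fell, beside 0.843% of all genes.

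Col8a2, the partner chain of Col8a1, averaged 1.05 ± 0.321 CPM in Flt3L Panc02 asGM1-positive cells and 0.418 ± 0.291 CPM in Flt3L Panc02 asGM1-negative cells (SD, n = 3 each). Its log2 fold change was 1.33 ± 0.57 (edgeR adjusted p = 0.169), and with the replicate number as a block its edgeR adjusted p was 0.038, but 0.0579 with a block within each tumour type. Whether the numbers pair the samples between these gates is not settled by the labels or the data.

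**Figure D4:**
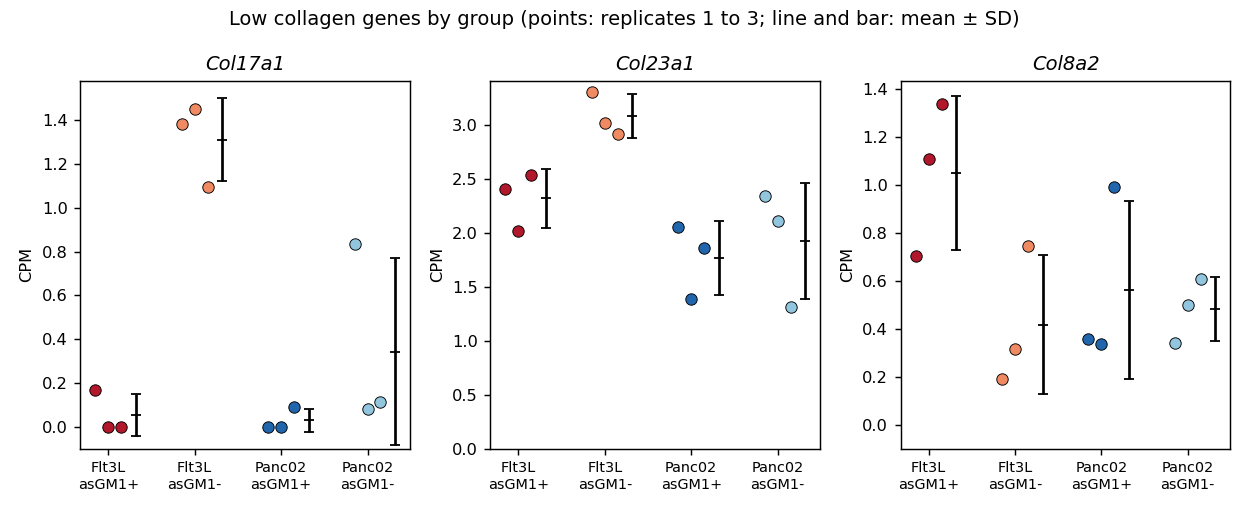
Points give the CPM of each replicate for Col17a1, Col23a1 and Col8a2 in the 4 groups, and the bars beside them the mean ± SD (n = 3). Col17a1 stands between 1.10 and 1.45 CPM in Flt3L Panc02 asGM1-negative cells and is at 0 in 2 libraries of each asGM1-positive group.

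Whether the gate difference depended on the tumour type was tested as an interaction. The quasi-likelihood test of edgeR called 0 of 29 collagens, beside 0.367% of all genes (0.0343% higher and 0.333% lower), and 2 had an unadjusted p under 0.05, beside 14.8% of all genes. DESeq2 called 0 and limma-voom 1 (Col14a1). The interaction was -2.81 ± 1.05 on the log2 scale for Col6a3 (edgeR adjusted p = 0.248), -2.54 ± 1.10 for Col3a1 (edgeR adjusted p = 0.311) and -0.76 ± 0.51 for Col8a1 (edgeR adjusted p = 0.507). The 6 collagens called in asGM1-positive cells against 2 in asGM1-negative cells are therefore not shown to differ between the gates.

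By Pearson's r, the chain pairs Col6a1 with Col6a2, Col4a1 with Col4a2 and Col1a1 with Col1a2 varied together across libraries. Col5a1 with Col5a2 did not pass the threshold, and Col6a1 with Col6a3 did not pass it within either tumour type. In all, 15 pairs were examined on the log2(CPM + 0.5) scale, with permutation p-values adjusted over the pairs. Levels of Col6a1 lay in separate ranges in the tumour types, so its pairs were taken within each type (n = 6), with adjustment over 30 such tests. All permutation p-values here treat the libraries as independent. The libraries come from both gates, and same-numbered Panc02 ones were taken to pair between the gates, so these p-values can be too small. Pearson's r of Col6a1 and Col6a2 was 0.962 in Flt3L Panc02 (exact permutation p = 0.00417, adjusted 0.025) and 0.986 in Panc02 tumours (exact permutation p = 0.00972, adjusted 0.0365), with Spearman's rho of 0.943 and 0.886 (exact permutation p = 0.0167 and 0.0333, both adjusted 0.0909). The ratio of Col6a1 to Col6a2 stayed between 1.16 and 1.78 in all 12 libraries. Col6a1 and Col6a2 are neighbours in the RefSeq gene order of chromosome 10. Col6a1 and Col6a3, which lie on different chromosomes, had r = 0.411 in Flt3L Panc02 (exact permutation p = 0.417, adjusted 0.484) and 0.862 in Panc02 tumours (exact permutation p = 0.0403, adjusted 0.134). Over all 12 libraries, in which the tumour types stand apart for Col6a1, their r was 0.864 (adjusted permutation p = 0.00109). With group means removed it was 0.802.

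Over all 12 libraries Col4a1 and Col4a2 had r = 0.967 (permutation p = 1e-05, the smallest that the resamples can give, adjusted 5e-05) and rho = 0.972 (adjusted permutation p = 7.5e-05). Without Panc02 asGM1-positive replicate 1 and Flt3L Panc02 asGM1-negative replicate 1, the farthest libraries, r was 0.931. Col1a1 and Col1a2 had r = 0.935 (adjusted permutation p = 5e-05) and rho = 0.944 (adjusted permutation p = 1e-04), and r was 0.914 without Flt3L Panc02 asGM1-negative replicate 1 and Panc02 asGM1-positive replicate 2. For Col1a1 and Col3a1, r was 0.83 (adjusted permutation p = 0.0033) and rho 0.692 (adjusted permutation p = 0.0473). Without the same 2 libraries that r was 0.548 (adjusted permutation p = 0.248), which did not pass the threshold. With group means removed over all 12 it was 0.976. Within the types it was 0.972 in Flt3L Panc02 and 0.934 in Panc02 (exact permutation p = 0.00556 and 0.00694, adjusted 0.0278 and 0.0298). Each type still holds 1 of the 2 libraries.

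Type I and type VI chains did not pass the adjusted threshold in either tumour type. Col1a1 and Col6a1 had r = 0.817 in Flt3L Panc02 (exact permutation p = 0.0583, adjusted 0.175) and 0.747 in Panc02 tumours (exact permutation p = 0.0667, adjusted 0.182). The ratio of Col1a1 to Col6a1 was 0.372, 0.433 and 0.182 in Flt3L Panc02 asGM1-positive cells, 0.0878, 0.765 and 0.605 in Flt3L Panc02 asGM1-negative cells, 0.0421, 0.233 and 0.0416 in Panc02 asGM1-positive cells and 0.0721, 0.0702 and 0.0719 in Panc02 asGM1-negative cells. Panc02 asGM1-negative libraries held nearly 1 ratio, while the libraries of the other groups spread widely. Col1a1 with Col4a1 (r = 0.449, adjusted permutation p = 0.27), Col5a1 with Col5a2 (r = 0.572, adjusted permutation p = 0.133) and Col1a1 with Sparc (r = 0.472, adjusted permutation p = 0.27), a collagen-binding glycoprotein, did not pass the threshold. Nor did Col1a1 with the other cell markers Pdgfrb, Pecam1, Lyz2 and Cd3e over the 12 libraries, with r of 0.0275 to 0.324 and adjusted permutation p-values of 0.45 to 0.931. Krt8 and Pdgfra, like Col6a1, lay in separate ranges in the tumour types. Within Flt3L Panc02, r of Col1a1 with all 6 markers was -0.181 to 0.482, and within Panc02 tumours it was -0.463 to 0.671 (adjusted exact permutation p = 0.298 or more in both). In Panc02 tumours r was 0.671 with Lyz2, 0.632 with Krt8, 0.623 with Pdgfra and 0.714 with Sparc, and rho was 0.886 with Lyz2, Pdgfra and Sparc (exact permutation p = 0.0333, adjusted 0.0909).

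**Figure D5:**
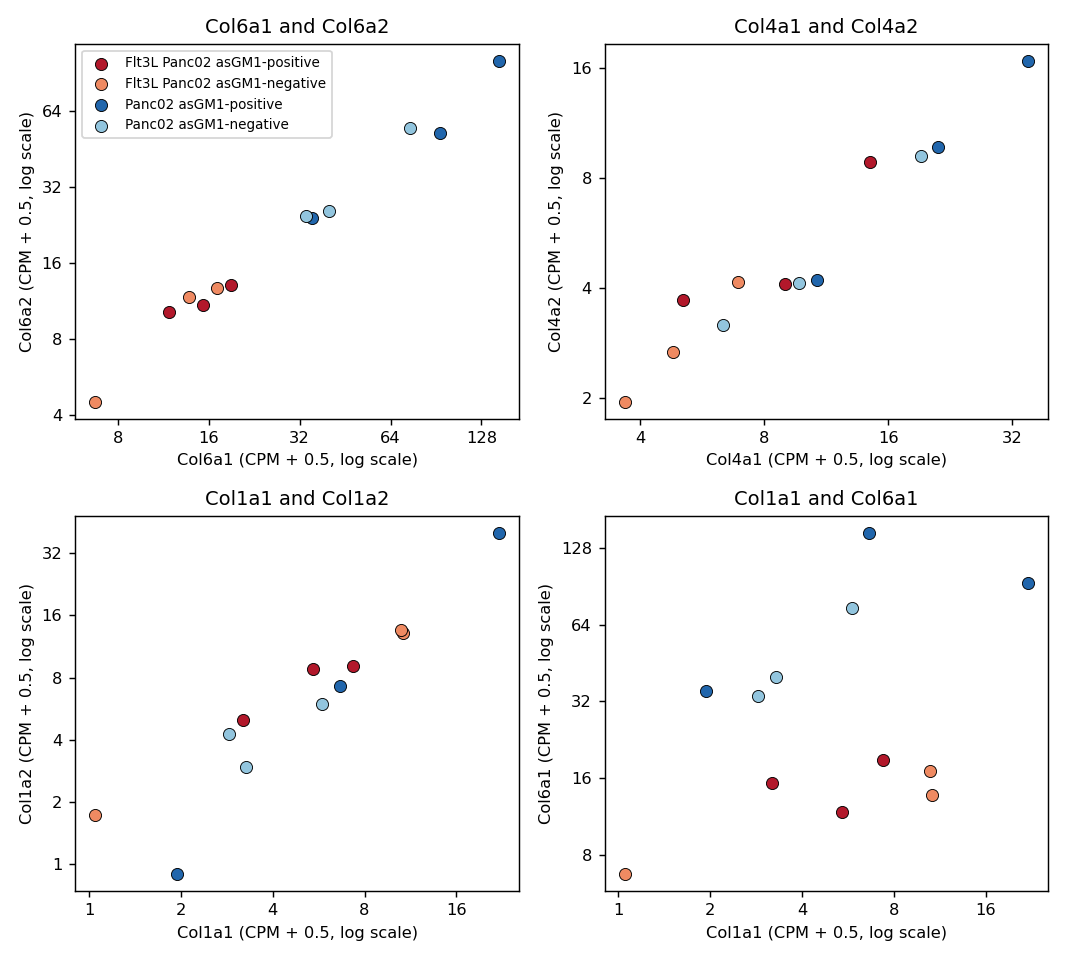
Each point is a library, with the level of the first gene on the x axis and of the second on the y axis (CPM + 0.5, log scales) and the 4 groups in colour. The Col6a1 and Col6a2, Col4a1 and Col4a2, and Col1a1 and Col1a2 points lie near a line, while for Col1a1 and Col6a1 the Panc02 points stand above the Flt3L Panc02 points.

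Outside the family, the gene most like Col1a1 across the 12 libraries was Postn, the matricellular protein periostin, with r = 0.879 among the 11766 genes averaging 1 CPM or more. Postn had 0.809, 1.98 and 0.421 CPM in Flt3L Panc02 asGM1-positive cells, 0.221, 5.74 and 6.39 CPM in Flt3L Panc02 asGM1-negative cells, 3.48, 18.5 and 0.23 CPM in Panc02 asGM1-positive cells and 1.82, 0.957 and 2.35 CPM in Panc02 asGM1-negative cells. As for Col1a1, the highest library was Panc02 asGM1-positive replicate 2. The next 9 were Serping1, Kbtbd8, Dcaf6, Thbs2, Ankrd28, Aqp1, Urb2, Ube3c and Xpo5, with r of 0.811 to 0.851. In addition, the genes outside the family most like Col6a1 were Ctnnd1, C1s1, Lum, Bcar1, Ehd2, C1qtnf1, Olfml2b, Prrx2, Inhbb and Ccdc80. Their r was 0.971 to 0.98, and C1s1 and Lum are in the fibroblast list. Levels of Col6a1 lay in separate ranges in the tumour types, so these r take in that difference. All these ranks are a description of the 12 libraries.

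Genes that make and modify collagen were counted from a list of 32. Of the 30 tested, 7 fell in Flt3L Panc02 relative to Panc02 asGM1-positive cells and none rose, beside 6.25% of all genes called. In asGM1-negative cells 1 fell, beside 1.84% of all genes lower. Pcolce, which enhances the trimming of procollagen ends, had 10.5, 10.4 and 10.6 CPM in Flt3L Panc02 asGM1-positive cells, 7.87, 8.01 and 9.13 CPM in Flt3L Panc02 asGM1-negative cells, 84.2, 35.9 and 23.6 CPM in Panc02 asGM1-positive cells and 30.9, 18.6 and 21.0 CPM in Panc02 asGM1-negative cells. It fell in both gates, by 2.19 ± 0.38 among asGM1-positive cells (edgeR adjusted p = 0.01) and by 1.49 ± 0.37 on the log2 scale in asGM1-negative cells (edgeR adjusted p = 0.0479). P3h4 and P3h3 of the prolyl 3-hydroxylase family and the crosslinking enzyme Loxl1 fell in asGM1-positive cells by 2.23 ± 0.41, 2.14 ± 0.45 and 2.92 ± 0.63 on the log2 scale (edgeR adjusted p = 0.0135, 0.0211 and 0.0232). The call of Pcolce in asGM1-negative cells ended in all 6 runs without 1 library, and those of P3h3 and Loxl1 in asGM1-positive cells in 4 of 6.

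The most abundant genes of the list, P4hb and Ppib, with means of 581 and 405 CPM, encode folding enzymes that all cells use. Between the gates of Flt3L Panc02, 2 genes of the list rose in asGM1-positive cells and none fell, beside 2.77% of all genes higher. P4hb rose by 0.43 ± 0.10 and Crtap by 0.42 ± 0.11 (log2 scale, edgeR adjusted p = 0.0226 and 0.0414). Without 1 library these calls ended in 2 and 5 of 6 runs. In Panc02 tumours edgeR called 0 of the 30 between the gates. The 12 tested genes of collagen cleavage and uptake were led by Pepd and Timp2, with means of 107 and 87.7 CPM. Of the 12, 2 fell in asGM1-positive cells of Flt3L Panc02 relative to Panc02, beside 4.2% of all genes lower. They were Timp1, an inhibitor of metalloproteinases, by 2.13 ± 0.38 (edgeR adjusted p = 0.0121), and Mmp14, a membrane-bound collagenase, by 1.94 ± 0.44 on the log2 scale (edgeR adjusted p = 0.029), a call that ended in 5 of 6 runs without 1 library. In the other comparisons edgeR called 0 of the 12.

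Collagen receptors did not move as 1 group. Of 8 tested, led by the integrin chains Itgb1 and Itga1 with means of 539 and 84.0 CPM, 1 rose and 2 fell in asGM1-positive relative to asGM1-negative cells of Flt3L Panc02 tumours, beside 2.77% of all genes higher and 5.83% lower, and edgeR called 0 between the gates of Panc02. Itga1, the collagen-binding chain CD49a, had 110.3, 122 and 70.7 CPM in Flt3L Panc02 asGM1-positive cells, 38.5, 49.9 and 46.0 CPM in Flt3L Panc02 asGM1-negative cells, 99.6, 129 and 134 CPM in Panc02 asGM1-positive cells and 56.5, 74.2 and 76.8 CPM in Panc02 asGM1-negative cells. The gates did not overlap in either tumour type, and the rise was called in Flt3L Panc02 (edgeR adjusted p = 0.00575).

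Lair1, an inhibitory receptor for collagen on leukocytes, had 13.6, 14.2 and 15.4 CPM in Flt3L Panc02 asGM1-positive cells, 101, 86.3 and 90.2 CPM in Flt3L Panc02 asGM1-negative cells, 37.1, 25.2 and 15.5 CPM in Panc02 asGM1-positive cells and 41.1, 32.8 and 31.7 CPM in Panc02 asGM1-negative cells. Flt3L Panc02 asGM1-negative libraries were the highest, as they were for Siglech, whose part in this was not tested. Lair1 fell by 2.68 ± 0.26 on the log2 scale in asGM1-positive relative to asGM1-negative cells of Flt3L Panc02 (edgeR adjusted p = 0.000173). Among asGM1-negative cells it rose by 1.39 ± 0.24 in Flt3L Panc02 relative to Panc02 (edgeR adjusted p = 0.0139), a call that ended in 3 of 6 runs without 1 library. Ddr1, a collagen-binding receptor tyrosine kinase of epithelial cells, fell by 2.09 ± 0.42 between the gates of Flt3L Panc02 (edgeR adjusted p = 0.0124).

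Ddr2, the related receptor of mesenchymal cells, had 3.34, 3.18 and 3.17 CPM in Flt3L Panc02 asGM1-positive cells, 2.65, 2.27 and 2.63 CPM in Flt3L Panc02 asGM1-negative cells, 35.6, 21.2 and 8.95 CPM in Panc02 asGM1-positive cells and 14.4, 7.72 and 6.33 CPM in Panc02 asGM1-negative cells. It fell in Flt3L Panc02 by 2.76 ± 0.44 among asGM1-positive cells (edgeR adjusted p = 0.00775) and by 1.92 ± 0.43 on the log2 scale in asGM1-negative cells (edgeR adjusted p = 0.035). All 6 Panc02 libraries were above all 6 Flt3L Panc02 libraries, and the call in asGM1-negative cells ended in each of 6 runs without 1 library.

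Of 24 other matrix genes, led by the secreted phosphoprotein Spp1 and fibronectin Fn1 with means of 417 and 108 CPM, 10 fell in Flt3L Panc02 relative to Panc02 in asGM1-positive cells and 4 in asGM1-negative cells, and none rose, beside 6.25% and 3.7% of all genes called. Dcn, Lum and Fbln1 are in this list and in the fibroblast list, so their calls count in both. On the log2 scale Fn1 fell by 2.95 ± 0.42 among asGM1-positive cells (edgeR adjusted p = 0.00579) and by 1.88 ± 0.41 among asGM1-negative cells (edgeR adjusted p = 0.0318), and the second call ended in each of 6 runs without 1 library. With the compared libraries fitted alone, every call named here from the lists in asGM1-positive cells ended, since 1 gene of the table was then called. Between the gates, 1 of 24 rose in Flt3L Panc02, the laminin chain Lamc1, beside 2.77% of all genes, and edgeR called 0 in Panc02.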

How the data were processed

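Libraries of sorted CD8+ T cells were grouped by their titles into 4 groups of 3. Per the labels' protocols, RNA was taken with TRIzol, and both TruSeq and SMARTer reagents are named. Whether the kit or the counting kept strand is not given in the sources used here. HISAT2, StringTie and the mm39 build are listed, per the submitters' processing notes, with no version in the sources used. The authors deposited estimated counts per gene, already whole numbers, in 12 columns for 56980 genes, 1542 of them without a symbol. Small values fell on steps of about 2.71 counts (2.67 to 2.75 described them equally well), taken as 1 sequenced fragment, so that the floor of 3 fragments was 8.13 counts. Totals were 98663008 to 102896605 counts, and precision is limited by the 3 libraries a group.

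CPM used TMM-scaled totals. In R 4.3.3, edgeR 4.0.16 kept 20411 genes (filterByExpr by group) and fitted the 4 group means over 12 libraries with the quasi-likelihood test and Benjamini-Hochberg adjustment over all of them. Each standard error is the unshrunken log2 fold change over the root of the F statistic, and the model was tested on simulated data. No fold is given where a group mean lies at or under the floor. Exon lengths came from GENCODE on GRCm38, so coordinates of the counts were not used. Members and lists were chosen with earlier results of these data known. Values in every library are given for the 12 collagens with the highest mean and any collagen called in the fit over 12 libraries. Other genes named were drawn mainly from the 10 most like Col1a1 or Col6a1. From each list came the 2 highest and up to 4 called by p. Only some of these have values in every library here.

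Alternatives were DESeq2 size factors, no filter, a filter of 5 CPM in 3 libraries, the DESeq2 1.42.0 test, limma-voom 3.58.1 with quality weights, a fit of the compared libraries, a replicate block, and each library left out. Counts in units of the fragment step, the omission of both Panc02 libraries numbered 1, a replicate block within each tumour type and correlations within each tumour type were chosen after seeing the data. Deviations of libraries with the same number correlated at 0.436, 0.264 and 0.364 between the gates of Panc02. There the numbers were taken from the data to pair the samples, though the labels do not state it. In Flt3L Panc02 these were 0.0991, 0.325 and 0.0114, and in the tumour comparisons -0.271 to 0.0756.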

Additional observations from a re-analysis of the deposited data

Results flagged for a closer look

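Between the tumour types, the difference between gates was tested as an interaction, and of the genes of all lists 2 passed it. Lair1, the inhibitory collagen receptor, had a log2 difference of -2.24 ± 0.34 between its gate effects in Flt3L Panc02 and in Panc02 tumours (edgeR adjusted p = 0.0238). It fell in asGM1-positive cells of Flt3L Panc02 and had -0.44 ± 0.24 in Panc02 (edgeR adjusted p = 0.59), and leaving out each library in turn ended its interaction call in 9 of 12 fits. Tcf4, a transcription factor of plasmacytoid dendritic cells, had -3.01 ± 0.53 (edgeR adjusted p = 0.0388), with a gate effect of -3.45 ± 0.40 in Flt3L Panc02 (edgeR adjusted p = 0.000627) and -0.44 ± 0.37 in Panc02 (edgeR adjusted p = 0.803). Its interaction call ended in 11 of 12 such fits.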

How the results depend on the processing

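Numbers of genes called depended on the test and on the libraries fitted, and the cause was not tested. Of all genes, the tumour comparison called 691 in asGM1-positive cells and 390 in asGM1-negative cells with no filter on low counts, 2984 and 2216 with DESeq2, 3120 and 3536 with limma-voom, and 402 and 481 without both Panc02 libraries numbered 1. The compared libraries alone gave 1 in asGM1-positive cells. The gate comparison in Flt3L Panc02 called 3215 with DESeq2, 2805 with limma-voom and 1094 with the compared libraries alone. In Panc02 it called 589, 831 and 118 in those settings and 107 without both libraries numbered 1. The interaction called 40 with no filter, 137 with the strict filter, 864 with DESeq2, 786 with limma-voom and 27 without both libraries numbered 1. Of the collagens, the asGM1-positive tumour comparison called 10 with limma-voom, 9 with DESeq2, 0 with the compared libraries alone and 2 without both libraries numbered 1. The asGM1-negative one called 0 with no filter and 4, all lower, with the strict filter and with DESeq2, and 4 with limma-voom (2 higher and 2 lower). Without both Panc02 libraries numbered 1 it called 1 higher and 1 lower. Between gates 1 was called in Flt3L Panc02 by DESeq2, by limma-voom and on counts divided by the fragment step, and in Panc02 2 by limma-voom and 1 without both libraries numbered 1. The interaction called 1 with limma-voom.

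With the replicate block the interaction called 135 genes (204 with the block within each tumour type), and 1 collagen each was called between gates in Flt3L Panc02 and between tumours in asGM1-negative cells. Between the gates of Panc02, where the numbers were taken to pair the samples, the block called 197 of all genes, against 182 without it, and no collagen. Between the gates of Flt3L Panc02, deviations of same-numbered libraries (0.0991, 0.325 and 0.0114) do not settle whether those libraries pair. In the tumour comparisons such deviations correlated at -0.271 to 0.0756.

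Leaving out 1 library gave 215 to 1737 genes and 1 to 9 collagens in the asGM1-positive tumour comparison, and 94 to 959 genes and 0 to 1 collagens in the asGM1-negative one. It gave 768 to 1942 and 94 to 226 genes between the gates of Flt3L Panc02 and Panc02, and 1 to 257 for the interaction, with 0 to 1 collagens in each. Among correlations, Col1a1 with Col3a1 was 0.548 without the 2 farthest libraries and 0.976 with group means removed. The sign turned without the 2 farthest for Col1a1 with Col6a1 (-0.169), Pdgfra (-0.0745), Krt8 (-0.325) and Lyz2 (-0.207), and the fold of Col1a1 in the asGM1-positive tumour comparison ranged over -1.50 to 0.35 without 1 library, reversed without Panc02 asGM1-positive replicate 2. With group means removed, r was 0.75 for Col1a1 with Col6a1, 0.759 for Col5a1 with Col5a2, 0.577 for Col1a1 with Col4a1, 0.365 with Krt8, 0.348 with Pecam1 and 0.398 with Cd3e. Of the log2 fold changes recomputed, 786 kept their direction and side of the threshold, 177 lost a call, 16 gained one and 1 reversed. Levels near the floor of 0.08 CPM are limited by depth.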
